A study of Mus musculus with 23 samples.

Results

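The genes described here are 40 germ cell genes, taken by symbol from a fixed list, and all 40 were found among the 23723 distinct symbols of the deposited table of counts. They comprise 11 genes of the meiotic chromosome axis and synaptonemal complex, 6 genes of meiotic recombination and meiotic entry, 16 genes of the piRNA pathway, germ granules and transposon control, and 7 other germ cell genes. RNA was read in E6.25 mouse embryos, that is, soon after implantation, separately for the extra-embryonic tissue (ExE) and for the epiblast (E), the source of the embryo itself. Embryos were homozygous (Tet1gt/gt, ZZ in the labels) or heterozygous (Tet1gt/wt, Zwt) for a gene-trap allele of *Tet1*, or wild type (wt). *Tet1* encodes a dioxygenase that oxidises 5-methylcytosine in DNA. Each library came from a pool of at least 6 embryos taken from 2 to 3 litters. There were 3 homozygous, 4 heterozygous and 4 wt ExE libraries (pools 1, 3 and 4, pools 1, 2, 3 and 5, and pools 1, 2, 4 and 5), and 4 homozygous, 4 heterozygous and 4 wt E libraries (pools 1 to 4, 2 to 5, and 1, 2, 4 and 5). Values of a group are given below in that order of pools.

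In the germ line, synaptonemal complex proteins hold paired chromosomes together along an axis of cohesins and HORMA-domain proteins, while programmed DNA breaks are repaired between the homologues. PIWI proteins, loaded with small piRNAs in granules near mitochondria, silence transposons there with the help of Tudor-domain proteins and RNA helicases. Many of these genes have CpG-rich promoters that are methylated in the embryo after implantation, and repressor complexes that contain E2F6, MGA and MAX bind several of them. The CACGTG motif (an E-box) is the sequence MAX and MGA recognise, and GCGGGAAA is a form of the E2F site. Neither DNA methylation nor binding was measured in these data.

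RefSeq (GRCm38.p6) held a promoter window, 250 bases before to 50 bases after the start site, for 34 of the 40 genes, and where it lists several start sites the first was counted, here and over all genes. The E-box CACGTG, which reads the same on both strands, was in 14 of these 34 windows (41.2%), against 7.24% of all 27025 windows. GCGGGAAA on either strand was in 3 of the 34 windows (8.82%), against 1.11% of all. The median number of CpG dinucleotides per window was 18.5 in the 34 windows and 7 in all windows. Among windows with at least 15 CpG, 13 of 26 (50%) held the E-box, against 11.5% of 9514 such windows of all genes. The 2 motifs do not overlap each other in letters, and 2 of the 34 windows, those of *Sycp3* and *Slc25a31*, held both. For 6 of the 34 genes RefSeq lists 7 further windows, of which 1, a second window of *Syce2*, held both motifs, so that over all windows 15 genes had the E-box and 4 had GCGGGAAA. The windows printed here belong to the 2 genes with the largest excess in ExE and to the 3 genes lower in ExE whose windows held the E-box. Not printed are those of *Dmc1*, *Sycp2* and *Smc1b*, also lower in ExE, which held neither motif. That of *Sycp1*, higher in ExE, held the E-box and is not printed either. E-boxes and the E2F motif are in capitals, 5′ to 3′ on the strand of the gene.
Tex19.1 (chr11:121145893-121146192, plus strand): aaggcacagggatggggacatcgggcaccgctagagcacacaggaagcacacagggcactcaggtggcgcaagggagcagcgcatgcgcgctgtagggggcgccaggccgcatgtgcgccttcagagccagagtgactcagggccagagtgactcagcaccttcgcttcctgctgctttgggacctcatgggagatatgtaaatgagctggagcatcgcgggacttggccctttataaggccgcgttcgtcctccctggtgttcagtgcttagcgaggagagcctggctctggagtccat
Asz1 (chr6:18109012-18109311, minus strand): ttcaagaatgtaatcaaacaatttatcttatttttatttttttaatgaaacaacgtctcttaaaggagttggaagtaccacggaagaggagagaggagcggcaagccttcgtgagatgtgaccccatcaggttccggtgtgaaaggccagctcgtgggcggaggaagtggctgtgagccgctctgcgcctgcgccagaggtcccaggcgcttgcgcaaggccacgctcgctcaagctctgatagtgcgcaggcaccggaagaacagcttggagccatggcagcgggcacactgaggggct
Sycp3 (chr10:88459337-88459636, plus strand): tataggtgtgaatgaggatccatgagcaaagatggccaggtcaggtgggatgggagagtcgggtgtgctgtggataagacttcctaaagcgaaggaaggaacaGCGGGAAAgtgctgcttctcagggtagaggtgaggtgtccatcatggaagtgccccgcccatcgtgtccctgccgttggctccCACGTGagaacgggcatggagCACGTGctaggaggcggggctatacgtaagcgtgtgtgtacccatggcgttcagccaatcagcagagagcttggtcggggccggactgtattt
Mael (chr1:166238695-166238994, minus strand): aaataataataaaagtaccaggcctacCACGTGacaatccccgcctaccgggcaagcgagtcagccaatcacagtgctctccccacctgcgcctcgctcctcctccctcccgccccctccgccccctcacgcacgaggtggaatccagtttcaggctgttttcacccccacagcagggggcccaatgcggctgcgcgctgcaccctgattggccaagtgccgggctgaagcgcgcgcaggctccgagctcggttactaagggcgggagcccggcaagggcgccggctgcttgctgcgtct
Ddx4 (chr13:112652261-112652560, minus strand): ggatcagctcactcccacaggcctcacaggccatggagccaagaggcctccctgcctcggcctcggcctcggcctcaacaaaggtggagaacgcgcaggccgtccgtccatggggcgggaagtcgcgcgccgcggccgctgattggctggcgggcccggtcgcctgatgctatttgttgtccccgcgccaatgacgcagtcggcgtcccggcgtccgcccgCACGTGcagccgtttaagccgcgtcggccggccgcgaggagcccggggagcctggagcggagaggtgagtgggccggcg
The *Sycp3* window had E-boxes beginning 64 and 43 bases before the start site and the E2F motif beginning 147 bases before it. The E-box began 223 bases before the start site in *Mael* and 29 bases before it in *Ddx4*. Those of *Tex19.1* and *Asz1* held neither motif, which says only that these letters are not in these windows.

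Total counts were 4912215 to 9494814 per library, and 3 counts, the limit that a count of 0 allows, corresponded to 0.312 to 0.681 CPM (counts scaled to library totals corrected by TMM). This limit covers counting error only. *Tet1* transcript averaged 27.8 ± 8.74 CPM in homozygous ExE (SD, n = 3), 48.1 ± 7.51 CPM in heterozygous ExE (SD, n = 4) and 96.1 ± 13.8 CPM in wt ExE (SD, n = 4). In the epiblast it averaged 81.0 ± 24.8 CPM in homozygous E, 124 ± 39.0 CPM in heterozygous E and 173 ± 31.6 CPM in wt E (SD, n = 4 each), so the homozygous pools still held *Tet1* reads. Trophoblast markers were higher in ExE for 9 of 9 tested genes, and 7 of 10 epiblast markers were lower. Epiblast markers were nevertheless present in ExE, with summed levels of 917 to 2767 CPM in ExE against 2960 to 4674 CPM in E, and the trophoblast markers summed to 99.3 to 662 CPM in E against 1627 to 3133 CPM in ExE. Much of the epiblast sum in ExE came from *Utf1* and *Pou3f1*, which overlapped between the tissues. *Utf1* measured 373 to 929 CPM in ExE and 511 to 1166 CPM in E, and *Pou3f1* 302 to 1066 and 468 to 1145 CPM. *Pou5f1*, in contrast, measured 13.5 to 393 CPM in ExE and 629 to 1166 CPM in E. Wt ExE pool 1 stood apart, with a mean log2 CPM of visceral endoderm markers of 4.04, against -0.93 to 1.02 in the other ExE libraries, the highest epiblast marker level of the ExE libraries (mean log2 CPM 7.02, against 4.56 to 6.77) and a mean log2 CPM of -0.14 for Y-linked genes. In E the visceral endoderm markers summed to 35.0 to 459 CPM in homozygous, 14.7 to 35.0 CPM in heterozygous and 57.1 to 915 CPM in wt libraries. All 12 were lower in heterozygous than in wt E (median log2 fold change -4.36), and 8 of 12 were lower in homozygous E (median -0.40). None was called. The part of visceral endoderm RNA in the E comparisons of genotypes was not tested. In 3 libraries, heterozygous E pool 4, homozygous E pool 3 and homozygous ExE pool 3, the log2 deviation of a gene from the mean of its tissue fell with transcript length (slopes of -0.375 to -0.314 per doubling of length, against -0.0611 to 0.129 in the other 20). In bulk tissue, fewer cells of a type and less RNA per cell cannot be told apart.

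Most of the germ cell genes were read at low levels in both tissues. Of the 40 genes, 13 had reads in all 23 libraries, 15 averaged under 1 CPM in both tissues, and 6 reached a mean of at least 10 CPM in ExE and 6 in E. Per kilobase of exon, *Tex19.1* had the highest mean level in ExE, 150.3 CPM per kilobase, followed by *Syce2* at 51.5 and *Rnf17*, a Tudor-domain gene, at 5.77. In E, *Syce2* led with 66.8 CPM per kilobase, followed by *Sycp3* at 12.9 and *Tex19.1* at 12.8, which are nearly equal. Together *Syce2* and *Tex19.1* held 70.4% of the summed CPM of the 40 genes in ExE and 50.3% in E. That sum was 451 to 621 CPM in ExE libraries and 239 to 417 CPM in E libraries, without overlap. Without those 2 genes it was 85.6 to 206 CPM in ExE, with a median of 169.6, and 86.7 to 224 CPM in E, with a median of 166, and the tissues overlapped almost entirely.

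**Figure D1:**
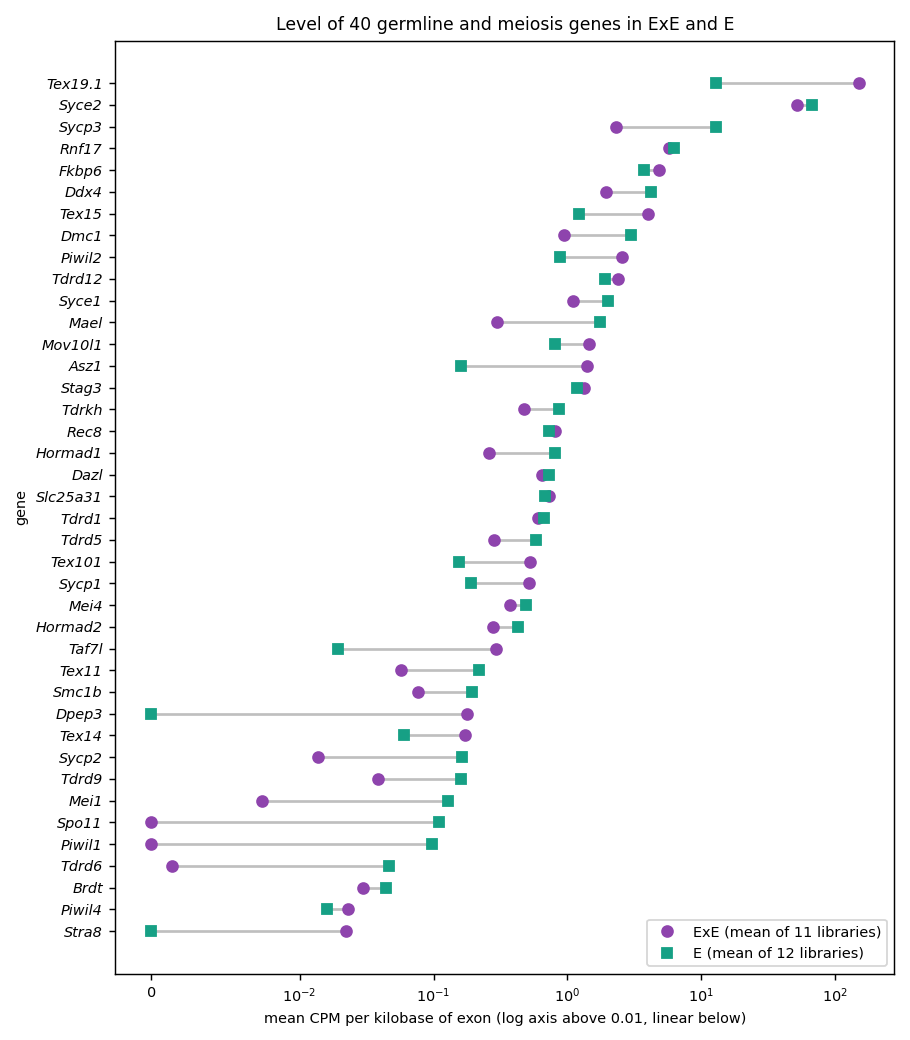
Mean level of each of the 40 genes, in CPM per kilobase of exon, in ExE (circles, 11 libraries) and in E (squares, 12 libraries), on a log axis that is linear below 0.01. Tex19.1 lies at 150.3 in ExE and 12.8 in E, and 15 genes averaged under 1 CPM in both tissues.

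Some genes with a central part in meiosis were at or near 0. *Spo11*, which makes the DNA breaks that start meiotic recombination, and *Piwil1*, a PIWI protein of the adult testis, had no read in any of the 11 ExE libraries. *Stra8*, required for meiotic entry, and *Dpep3*, a membrane dipeptidase gene, had none in any of the 12 E libraries. A count of 0 in a library allows up to 0.312 to 0.681 CPM there. *Stra8* had reads in 1 ExE library, wt pool 2, at 0.443 CPM. *Piwil1* had reads in 2 E libraries, with 1.98 CPM in homozygous pool 2 and 3.14 CPM in heterozygous pool 4. *Spo11* had reads in 5 E libraries, at no more than 1.21 CPM.

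The first comparison was of ExE with E over the 3 genotypes. The filter on low counts left 29 of the 40 genes, and 10 of these passed the test (edgeR's quasi-likelihood test, Benjamini-Hochberg adjusted over 13595 genes, threshold 0.05), against 46.1% of all genes tested. Higher in ExE were 4 genes, *Tex19.1*, *Tex15*, *Asz1* and *Sycp1*, where 22.1% of all genes were higher. Lower in ExE were 6 genes, *Sycp3*, *Dmc1*, *Mael*, *Ddx4*, *Sycp2* and *Smc1b*, where 23.9% of all genes were lower. The germ cell genes were thus called no more often than genes in general. The 11 untested genes, *Spo11*, *Mei1*, *Stra8*, *Tdrd6*, *Tdrd9*, *Piwil1*, *Piwil4*, *Taf7l*, *Tex101*, *Brdt* and *Dpep3*, had at most 69 counts in a library. The median log2 fold change of the 29 genes was -0.36, and that of all genes was -0.02. In 3 of the 29, *Sycp2*, *Smc1b* and *Tex11*, every heterozygous ExE library was at 0 (and every homozygous E library for *Tex11*), so their fitted fold changes depend on the prior count and are not given. By the log2 ratio of their means (-3.57, -1.34 and -1.94) they lay below the median as well.

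**Figure D2:**
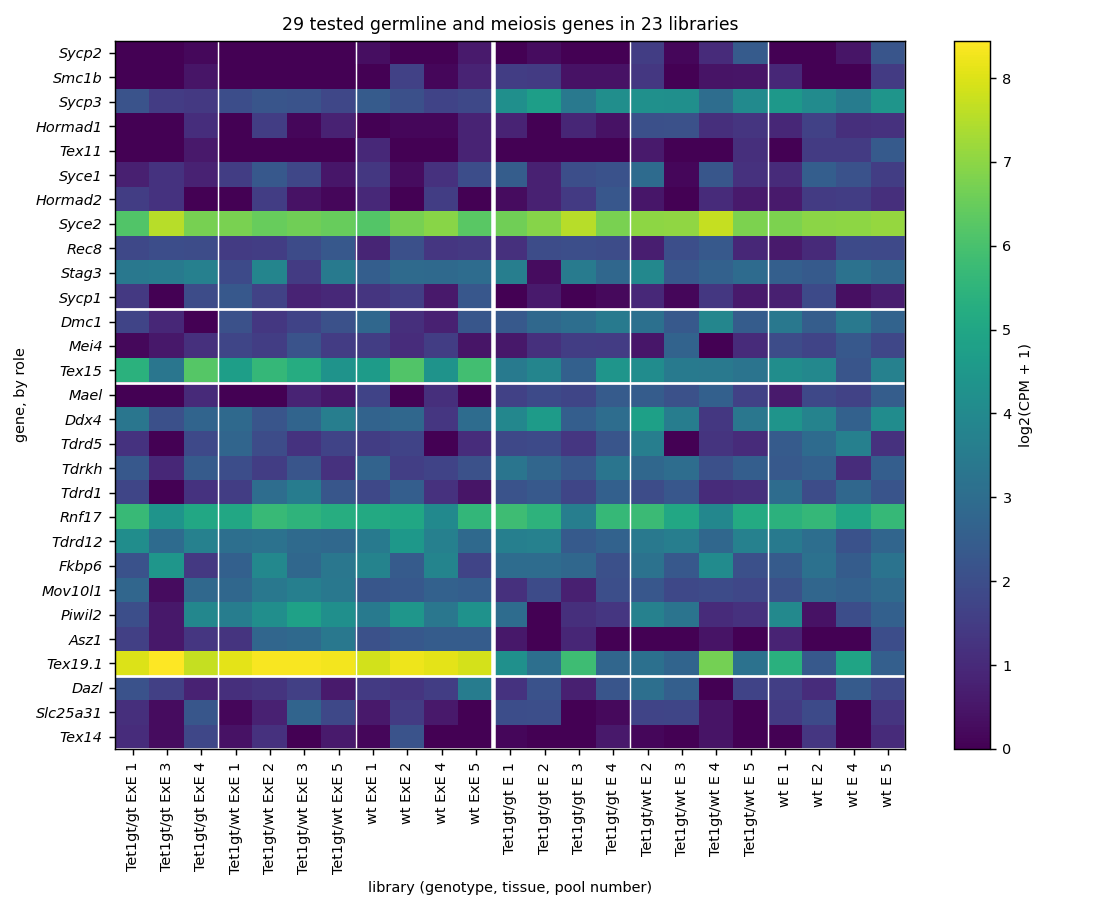
Level of the 29 tested genes in every library, as log2(CPM + 1), with ExE libraries left of the thick line and E libraries right of it, and genes grouped by role (axis and synaptonemal complex at the top, then recombination, piRNA and germ granule genes, and others). Tex19.1 stands out in ExE at 208 to 347 CPM, Sycp3 in E at 7.14 to 25.7 CPM, and Syce2 and Rnf17 are high in both tissues.

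Among the genes of the chromosome axis and synaptonemal complex, 1 of the 11 tested rose in ExE and 3 fell, with a median log2 fold change of -1.004. *Sycp3*, which encodes a structural protein of the axial and lateral elements, had the smallest p of the 29 tested genes. *Sycp3* measured 3.51, 1.82 and 1.64 CPM in homozygous ExE, 2.96, 3.73, 3.47 and 2.45 CPM in heterozygous ExE, and 4.32, 3.21, 2.26 and 2.57 CPM in wt ExE. In E it had 17.4, 25.7, 9.78 and 17.1 CPM in homozygous E, 17.7, 17.6, 7.14 and 15.5 CPM in heterozygous E, and 21.4, 16, 10.6 and 20.1 CPM in wt E. Every ExE library lay below every E library. The means were 2.9 ± 0.836 CPM in ExE (SD, n = 11) and 16.3 ± 5.18 CPM in E (SD, n = 12), with a log2 fold change of -2.52 ± 0.24 (SE), adjusted p = 2.90e-08. Such a separation with ExE lower was found for this gene among the 29, and for 3.43% of all genes. *Chpt1* overlaps exons of *Sycp3* on the opposite strand, and since the strand setting of the counting is not given its reads cannot be told apart from those of *Sycp3*. *Chpt1* measured 21.4 ± 9.21 CPM in ExE (SD, n = 11) and 16.2 ± 4.93 CPM in E (SD, n = 12), with a log2 fold change of 0.42 ± 0.20 (SE), adjusted p = 0.0959.

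*Sycp1*, the transverse filament protein that joins the lateral elements, went the other way. *Sycp1* measured 1.62, 0 and 2.89 CPM in homozygous ExE, 4.06, 2.15, 0.783 and 0.96 CPM in heterozygous ExE, and 1.44, 1.99, 0.477 and 3.92 CPM in wt ExE. The E libraries gave 0, 0.521, 0 and 0.169 CPM in homozygous E, 0.958, 0.115, 1.57 and 0.525 CPM in heterozygous E, and 0.658, 2.75, 0.271 and 0.591 CPM in wt E. Only 3 of the 11 ExE libraries were above every E library. The means were 1.85 ± 1.33 CPM in ExE (SD, n = 11) and 0.677 ± 0.791 CPM in E (SD, n = 12), with a log2 fold change of 1.71 ± 0.68 (SE), adjusted p = 0.0423. Leaving out 1 library at a time kept this call in 8 of 23 fits, and the highest adjusted p, 0.109, came without homozygous ExE pool 4.

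*Sycp2*, the partner of SYCP3 in the axial element, had reads in 3 of 11 ExE libraries and in 7 of 12 E libraries. *Sycp2* measured 0, 0 and 0.126 CPM in homozygous ExE, 0, 0, 0 and 0 CPM in heterozygous ExE, and 0.24, 0, 0 and 0.54 CPM in wt ExE. Its E levels were 0, 0.208, 0 and 0 CPM in homozygous E, 1.92, 0.115, 1.05 and 4.33 CPM in heterozygous E, and 0, 0, 0.407 and 3.69 CPM in wt E. Reads above 1 CPM were thus seen only in 4 E libraries, so *Sycp2* passed the filter on low counts through E alone. The ratio of the mean in ExE to that in E was 0.0843, and the adjusted p was 0.0305. Without wt ExE pool 5, which had the most reads in ExE, the ratio was 0.0375. The call was lost without homozygous ExE pool 1 (adjusted p = 0.0535). It was also lost with the litters as a block (adjusted p = 1) and without homozygous E pool 2 (0.9999), fits in which further terms rested on no reads. *Smc1b*, a cohesin subunit specific to meiosis, had reads in 4 of 11 ExE libraries and in 9 of 12 E libraries. *Smc1b* measured 0, 0 and 0.377 CPM in homozygous ExE, 0, 0, 0 and 0 CPM in heterozygous ExE, and 0, 2.1, 0.119 and 0.81 CPM in wt ExE. In E it had 1.91, 1.77, 0.343 and 0.339 CPM in homozygous E, 1.6, 0, 0.348 and 0.394 CPM in heterozygous E, and 0.921, 0, 0 and 1.77 CPM in wt E. The groups overlapped, since the highest value of all was in wt ExE pool 2. The ratio of means was 0.396, and 0.167 without that library. The adjusted p was 0.0353, and 0.178 with the litters as a block. The call was kept in 16 of 23 fits that left out 1 library, and was lost without wt E pool 5, heterozygous E pool 2, homozygous E pool 1 or 2, heterozygous ExE pool 5, or homozygous ExE pool 1 or 3, at adjusted p of up to 0.0750.

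*Syce2*, a central element gene, was the most abundant axis gene in both tissues. It measured 69.9 to 185 CPM in ExE, with a median of 97.8, and 96.6 to 207 CPM in E, with a median of 125. The log2 fold change was -0.36 ± 0.16 (SE), just outside the threshold with an adjusted p of 0.0616. With the pool number shared by E and ExE as a block it passed (log2 fold change -0.34 ± 0.09 (SE), adjusted p = 0.00628). The cohesin genes *Stag3* and *Rec8* had log2 fold changes of 0.18 ± 0.41 and 0.16 ± 0.41 (SE) and overlapped between the tissues. *Stag3* averaged 7.66 ± 3.69 CPM in ExE (SD, n = 11) and 6.81 ± 3.8 CPM in E (SD, n = 12), and *Rec8* 2.37 ± 0.926 CPM in ExE (SD, n = 11) and 2.15 ± 1.22 CPM in E (SD, n = 12). The axis genes *Hormad1* and *Hormad2* averaged under 2 CPM in both tissues, and neither they, *Syce1* nor *Tex11* passed the test.

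Of the genes of recombination and meiotic entry, 3 of 6 were tested, of which *Tex15* rose and *Dmc1* fell. *Tex15*, first described for its role in repairing meiotic breaks and later in piRNA-directed silencing of transposons in the male germ line, is a long gene with 9622 bases of exon. *Tex15* measured 41.3, 8.85 and 73 CPM in homozygous ExE, 25.3, 48.5, 36.9 and 19 CPM in heterozygous ExE, and 24, 69.3, 19.4 and 58.3 CPM in wt ExE. The E libraries gave 9.98, 13.4, 4.98 and 20.3 CPM in homozygous E, 16.1, 10.3, 9.75 and 8.54 CPM in heterozygous E, and 16.7, 14.2, 3.66 and 12.1 CPM in wt E. Of the 11 ExE libraries, 8 were above every E library, and homozygous ExE pool 3, at 8.85 CPM, was the lowest. The means were 38.6 ± 21.6 CPM in ExE (SD, n = 11) and 11.7 ± 4.83 CPM in E (SD, n = 12), with a log2 fold change of 1.72 ± 0.33 (SE), adjusted p = 1.71e-04. *Dmc1*, the recombinase that acts only in meiosis, was lower in ExE. *Dmc1* measured 2.3, 0.908 and 0 CPM in homozygous ExE, 3.29, 1.58, 2.24 and 3.31 CPM in heterozygous ExE, and 6.0, 1.22, 0.715 and 3.78 CPM in wt ExE. Its E levels were 4.15, 6.2, 7.21 and 9.99 CPM in homozygous E, 7.77, 4.15, 13.8 and 4.47 CPM in heterozygous E, and 9.34, 4.62, 9.63 and 5.47 CPM in wt E. Of the 11 ExE libraries, 10 lay below every E library, and the exception was wt pool 1, the ExE library with the highest levels of both visceral endoderm and epiblast markers. The ExE libraries next in epiblast markers were homozygous pool 4, wt pool 4 and homozygous pool 3 (mean log2 CPM 6.77, 6.66 and 6.62). They had the lowest *Dmc1* in ExE, at 0, 0.715 and 0.908 CPM. The means were 2.3 ± 1.71 CPM in ExE (SD, n = 11) and 7.23 ± 2.99 CPM in E (SD, n = 12), with a log2 fold change of -1.83 ± 0.44 (SE), adjusted p = 0.00168. Without wt ExE pool 1 the log2 fold change was -2.04 and the adjusted p 0.000739, and the part of visceral endoderm or epiblast RNA in the ExE values was not tested. *Mei4*, required for meiotic break formation, averaged 1.52 ± 0.982 CPM in ExE (SD, n = 11) and 2.01 ± 1.58 CPM in E (SD, n = 12) and did not pass the test (adjusted p = 0.408).

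Among the piRNA, germ granule and transposon-control genes, 12 of 16 were tested, 2 rose and 2 fell, and the median log2 fold change was 0.10. *Tex19.1*, which restrains retrotransposons in germ cells and is also known from placenta and pluripotent cells, had the largest difference. *Tex19.1* measured 255, 347 and 208 CPM in homozygous ExE, 275, 328, 326 and 311 CPM in heterozygous ExE, and 233, 303, 274 and 235 CPM in wt ExE. In E it had 17.7, 7.39, 55.1 and 5.92 CPM in homozygous E, 7.67, 5.53, 102 and 8.14 CPM in heterozygous E, and 40.1, 4.18, 29.3 and 4.87 CPM in wt E. Every ExE library was above every E library, a separation seen with ExE higher for this gene among the 29 and for 4.27% of all genes. The means were 281 ± 45.2 CPM in ExE (SD, n = 11) and 24 ± 29.6 CPM in E (SD, n = 12), with a log2 fold change of 3.57 ± 0.50 (SE), adjusted p = 4.93e-06. Its neighbouring paralogue *Tex19.2* averaged 1.55 ± 1.23 CPM in ExE (SD, n = 11) and 0.640 ± 0.743 CPM in E (SD, n = 12), and reads could be divided between the 2 genes in the counting.

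In E the level of *Tex19.1* was uneven. The 5 E libraries with the most trophoblast marker RNA (heterozygous pool 4, homozygous pools 1 and 3, and wt pools 1 and 4, with mean log2 CPM of the markers from 3.39 to 4.81) had 17.7 to 102 CPM of *Tex19.1*. The other 7 E libraries, with marker levels of 0.57 to 2.35, had 4.18 to 8.14 CPM. All 10 markers were in the table, and their summed level over the 12 E libraries was 99.3 to 662 CPM, against 1627 to 3133 CPM in ExE. The part of trophoblast RNA in the E values was not tested. Without heterozygous E pool 4 the log2 fold change of *Tex19.1* was 4.29, and without the 3 libraries of steep length slope it was 4.54.

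**Figure D3:**
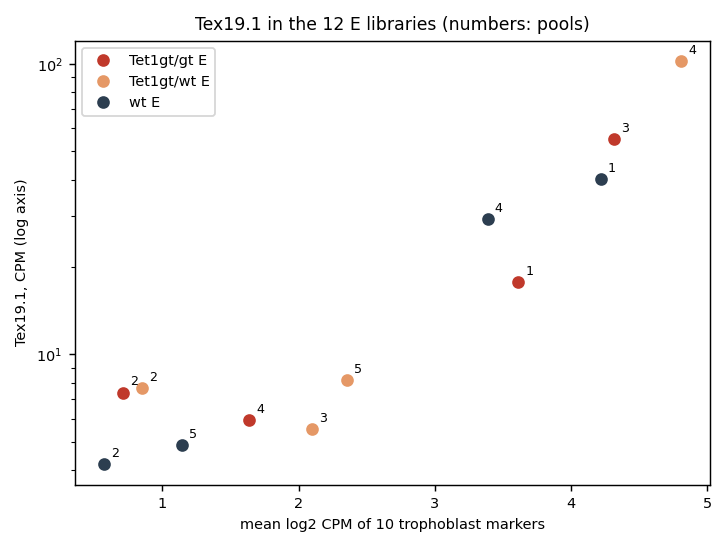
Level of Tex19.1 (CPM, log axis) against the mean log2 CPM of 10 trophoblast markers in the 12 E libraries, coloured by genotype and numbered by pool. The 5 libraries on the right have 17.7 to 102 CPM and the 7 on the left 4.18 to 8.14 CPM.

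*Asz1*, a germ granule gene that acts at the mitochondrial surface in piRNA production, was low but had reads in all 11 ExE libraries. *Asz1* measured 2.03, 0.454 and 1.51 CPM in homozygous ExE, 1.43, 5.89, 6.37 and 9.39 CPM in heterozygous ExE, and 3.24, 3.99, 4.53 and 4.46 CPM in wt ExE. The E libraries gave 0.448, 0, 0.858 and 0 CPM in homozygous E, 0, 0, 0.348 and 0 CPM in heterozygous E, and 0.789, 0, 0 and 2.95 CPM in wt E. Of the 11 ExE libraries, 7 were above every E library. The means were 3.93 ± 2.62 CPM in ExE (SD, n = 11) and 0.45 ± 0.852 CPM in E (SD, n = 12), with a log2 fold change of 3.40 ± 0.77 (SE), adjusted p = 9.52e-04. The log2 fold change was 3.99 without wt E pool 5. Without heterozygous E pool 4 every heterozygous E library is at 0, and the ratio of the mean in ExE to that in E was then 8.57, against 8.74 with all libraries. Of the 5 E libraries with *Asz1* reads, 4 were among the 5 with the most trophoblast marker RNA. The other, wt E pool 5, had the most *Asz1* in E (2.95 CPM) and a low marker level (mean log2 CPM 1.14), and the part of trophoblast RNA in these values was not tested. *Tex15*, in contrast, had 3.66 to 16.7 CPM in those 5 E libraries and 8.54 to 20.3 CPM in the other 7.

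*Mael*, which takes part in silencing transposons, was lower in ExE. *Mael* measured 0, 0 and 1.01 CPM in homozygous ExE, 0, 0, 0.783 and 0.427 CPM in heterozygous ExE, and 2.28, 0, 1.19 and 0 CPM in wt ExE. Its E levels were 2.13, 2.71, 2.4 and 4.4 CPM in homozygous E, 4.47, 3.23, 5.05 and 2.1 CPM in heterozygous E, and 0.526, 2.53, 2.17 and 4.58 CPM in wt E. Of the 11 ExE libraries, 6 had no read and 7 lay below every E library. The means were 0.517 ± 0.741 CPM in ExE (SD, n = 11) and 3.03 ± 1.35 CPM in E (SD, n = 12), with a log2 fold change of -2.66 ± 0.76 (SE), adjusted p = 0.00661. Without homozygous ExE pool 4 every homozygous ExE library is at 0, and the ratio of the mean in ExE to that in E was then 0.155, against 0.171 with all libraries. The log2 fold change was -3.02 without wt ExE pool 1, whose 2.28 CPM were the most in ExE. *Ddx4*, the mouse Vasa gene and a marker of germ cells, was lower too. *Ddx4* measured 8.91, 3.18 and 5.54 CPM in homozygous ExE, 6.47, 3.73, 5.59 and 11.2 CPM in heterozygous ExE, and 5.4, 6.09, 1.55 and 6.89 CPM in wt ExE. In E it had 13.9, 23.6, 4.81 and 7.11 CPM in homozygous E, 27.2, 10.8, 1.57 and 9.19 CPM in heterozygous E, and 19.6, 12.8, 5.15 and 16.2 CPM in wt E. All 11 ExE libraries were below the E median, but the ranges overlapped. The means were 5.87 ± 2.65 CPM in ExE (SD, n = 11) and 12.7 ± 7.86 CPM in E (SD, n = 12), with a log2 fold change of -1.12 ± 0.39 (SE), adjusted p = 0.0213. Without heterozygous E pool 2 the adjusted p was 0.0605, and without homozygous E pool 2 it was 0.0504.

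**Figure D4:**
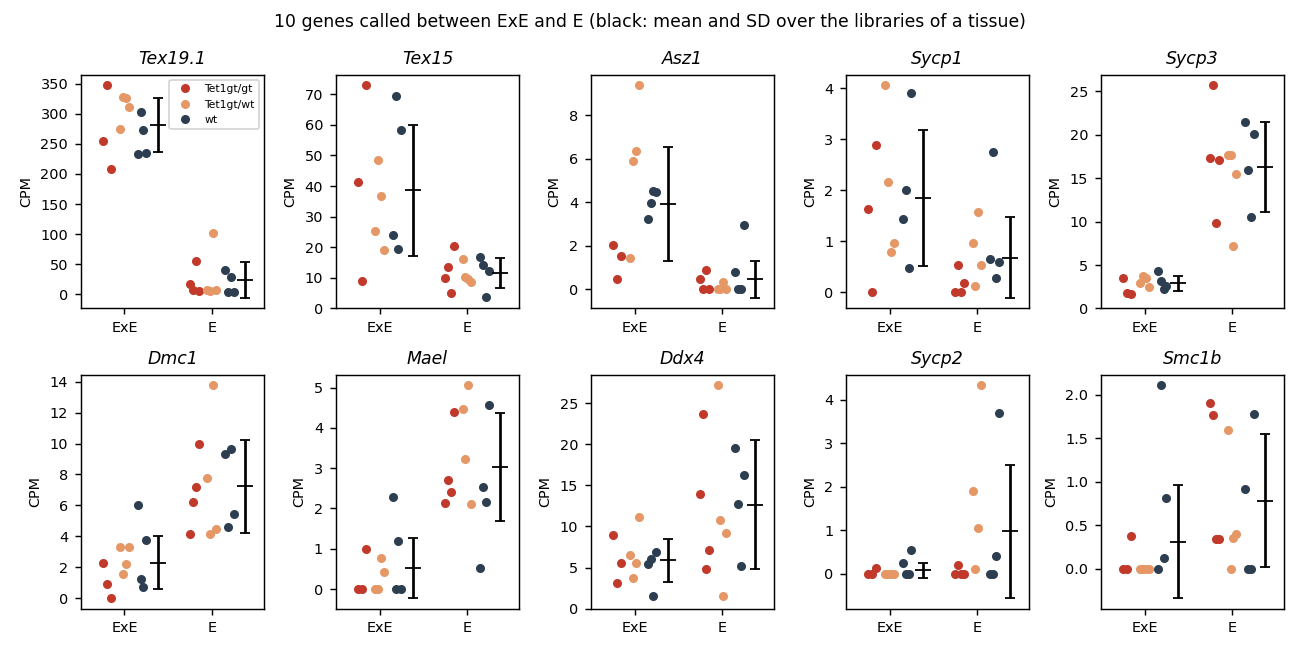
CPM of the 10 genes that passed the test between ExE (left in each panel) and E (right), 1 point per library coloured by genotype, with black bars for the mean and SD of a tissue. Only Tex19.1 and Sycp3 separate completely, and Sycp2 and Smc1b are at 0 in most ExE libraries.

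Another 3 piRNA genes lay just outside the threshold. *Piwil2*, which carries primary piRNAs, measured 0.454 to 27.3 CPM in ExE, with a median of 14.0, and 0 to 14.9 CPM in E, with a median of 2.25 (log2 fold change 1.42 ± 0.59 (SE), adjusted p = 0.0536). *Mov10l1*, an RNA helicase of piRNA production, measured 0.227 to 11.4 CPM in ExE, with a median of 5.94, and 0.686 to 6.65 CPM in E, with a median of 2.93 (0.83 ± 0.35 (SE), adjusted p = 0.0551). *Tdrkh*, a Tudor-domain gene that tethers PIWI proteins to mitochondria, measured 0.908 to 5.52 CPM in ExE, with a median of 2.96, and 1.09 to 8.80 CPM in E, with a median of 4.90 (-0.80 ± 0.34 (SE), adjusted p = 0.0544), and it passed with the litters as a block (-0.99 ± 0.37 (SE), adjusted p = 0.0390). In all 3 the tissues overlapped, and the lowest ExE value was in homozygous pool 3, a library of steep length slope. That pool was the lowest of the 3 homozygous ExE pools for 13 of the 29 tested genes (44.8%), and for 36.9% of all genes tested. *Rnf17* was among the most abundant genes in both tissues, at 36 ± 11.8 CPM in ExE (SD, n = 11) and 38.9 ± 14.7 CPM in E (SD, n = 12), and its log2 fold change was -0.12 ± 0.25 (SE). *Tdrd12*, *Fkbp6*, *Tdrd1* and *Tdrd5*, of the same pathway, did not pass the test, with log2 fold changes from -1.10 to 0.36. *Dazl*, an RNA-binding protein of germ cells, averaged 2.46 ± 2.82 CPM in ExE (SD, n = 11) and 2.8 ± 2.1 CPM in E (SD, n = 12) and did not pass either (adjusted p = 0.658).

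The E-box occurred on both sides of this comparison. The E-box was in 1 of 3 windows of genes higher in ExE (that of *Sycp1*), in 3 of 6 of those lower (*Sycp3*, *Mael* and *Ddx4*), in 6 of 16 of those tested but not called, and in 4 of 9 of those not tested. The median number of CpG per window was 17, 21, 20 and 12 in these sets. These counts are too small to compare and were not tested.

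Within a genotype, fewer genes passed the same test. ExE against E called 2 of the genes in homozygous libraries, 6 in heterozygous libraries and 3 in wt libraries. The shares of all genes called in these fits are not given here, so the counts do not compare the genotypes. *Tex19.1* and *Sycp3* were called in each, with log2 fold changes of 3.65, 3.31 and 3.72 for *Tex19.1* and -2.91, -2.21 and -2.47 for *Sycp3* in homozygous, heterozygous and wt libraries. *Dmc1* and *Ddx4* had negative log2 fold changes within each genotype, from -2.69 to -1.33 and from -1.45 to -0.87, and were called in none. *Asz1* had a log2 fold change of 6.09 in heterozygous libraries, where it was called, and of 2.10 in wt libraries, where it was not. The heterozygous E libraries held only 2 counts of *Asz1*, all in pool 4 and within what a count of 0 allows, so the size of 6.09 is poorly set. Whether the tissue difference itself differs with homozygosity was tested as an interaction, and 0 of the 29 genes passed (edgeR, with 0 at an unadjusted p under 0.05, and 0 with DESeq2), as did 0% of 13595 genes.

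Other germ line genes were counted from lists of their own in the same test of ExE against E. That test called 46.1% of all genes, 22.1% higher and 23.9% lower in ExE, and the short lists were not tested against these shares. Of the genes of primordial germ cell specification, 8 of 10 were tested. *Tfap2c*, which is also a trophoblast regulator, rose in ExE, with 544 ± 222 CPM in ExE (SD, n = 11) and 25.5 ± 35.0 CPM in E (SD, n = 12). Another 6 fell, led by *Kit*, *Ifitm3* and *Nanog* with log2 fold changes of -2.73 ± 0.60, -2.40 ± 0.52 and -2.32 ± 0.37 (SE), and some of these, such as *Nanog*, are known from epiblast cells in general. Of 10 tested genes among 20 other meiosis genes, *Prdm9*, which places meiotic breaks, and *Mnd1*, a partner of DMC1, rose in ExE by 2.75 ± 0.65 and 0.55 ± 0.18 (SE) on the log2 scale. *Hfm1*, a helicase of crossing-over, and *Ythdc2*, an RNA helicase needed for meiosis, fell with log2 fold changes of -2.41 ± 0.66 and -1.04 ± 0.29 (SE). Of 6 tested genes among 8 other piRNA and germ granule genes, 0 rose and 2 fell, *Ddx25* (-1.01 ± 0.33 (SE)) and *Pld6* (-0.68 ± 0.24 (SE)). Of 4 tested genes among 16 oocyte and spermatid genes, *Sohlh2* rose (1.25 ± 0.39 (SE)) and *Cyct* fell (-1.48 ± 0.32 (SE)).

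Of 24 tested genes for the repressors of germ line promoters and the DNA methyltransferases, 1 rose in ExE and 10 fell. The share called in either direction is close to the 46.1% of all genes called in the same test. By direction the split was uneven, with 1 higher and 10 lower, where 22.1% of all genes were higher and 23.9% lower. This split was not tested. *Dnmt3l*, a cofactor of the de novo methyltransferases, had 110.2 ± 25.9 CPM in ExE (SD, n = 11) and 15 ± 8.74 CPM in E (SD, n = 12), with a log2 fold change of 2.90 ± 0.23 (SE). The de novo methyltransferases *Dnmt3a* and *Dnmt3b* fell, with log2 fold changes of -2.92 ± 0.24 and -1.81 ± 0.11 (SE). *Dnmt3b* measured 1872 ± 579 CPM in ExE (SD, n = 11) and 6406 ± 1196 CPM in E (SD, n = 12). *Cbx3* and *Mga* fell by 0.72 ± 0.21 and 0.59 ± 0.19 (SE) on the log2 scale, and the maintenance methyltransferase *Dnmt1* had a log2 fold change of 0.01 ± 0.11 (SE). *Tet2* rose (1.74 ± 0.45 (SE)) and *Tet1* fell (-1.25 ± 0.15 (SE)) in ExE, while *Tet3* did not pass (adjusted p = 0.0928). None of these lists had a gene called in a comparison of genotypes, *Tet1* itself included.

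The second set of comparisons asked whether the *Tet1* gene trap changed the germ cell genes in either tissue. In ExE, 0 of 25 tested genes passed between homozygous and wt libraries, as did 0% of 12355 genes. In E, 0 of 24 passed, against 0.0161% of 12405 genes. Between heterozygous and wt libraries, 0 of 25 passed in ExE and 0 of 24 in E, as did 0% of all genes in both. At an unadjusted p under 0.05 there was 1 gene in homozygous ExE, 1 in homozygous E and 0 in heterozygous libraries of either tissue, and DESeq2 called 0 in each of the 4 comparisons. The median log2 fold change of the tested germ cell genes between homozygous and wt was -0.05 in ExE and 0.04 in E, and that of all genes was -0.02 in ExE and 0.01 in E. A p that misses the threshold does not show that values did not differ, and the SE of low genes was wide. The trapped gene *Tet1* itself did not pass in any of the 4 comparisons. Its mean was 27.8 CPM in homozygous and 96.1 CPM in wt ExE, and 81.0 CPM in homozygous and 173 CPM in wt E. It was not called although homozygous and wt libraries did not overlap. *Tet1* ranges were 21.5 to 37.7 against 77.0 to 110 CPM in ExE, and 54.9 to 112 against 127 to 197 CPM in E.

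**Figure D5:**
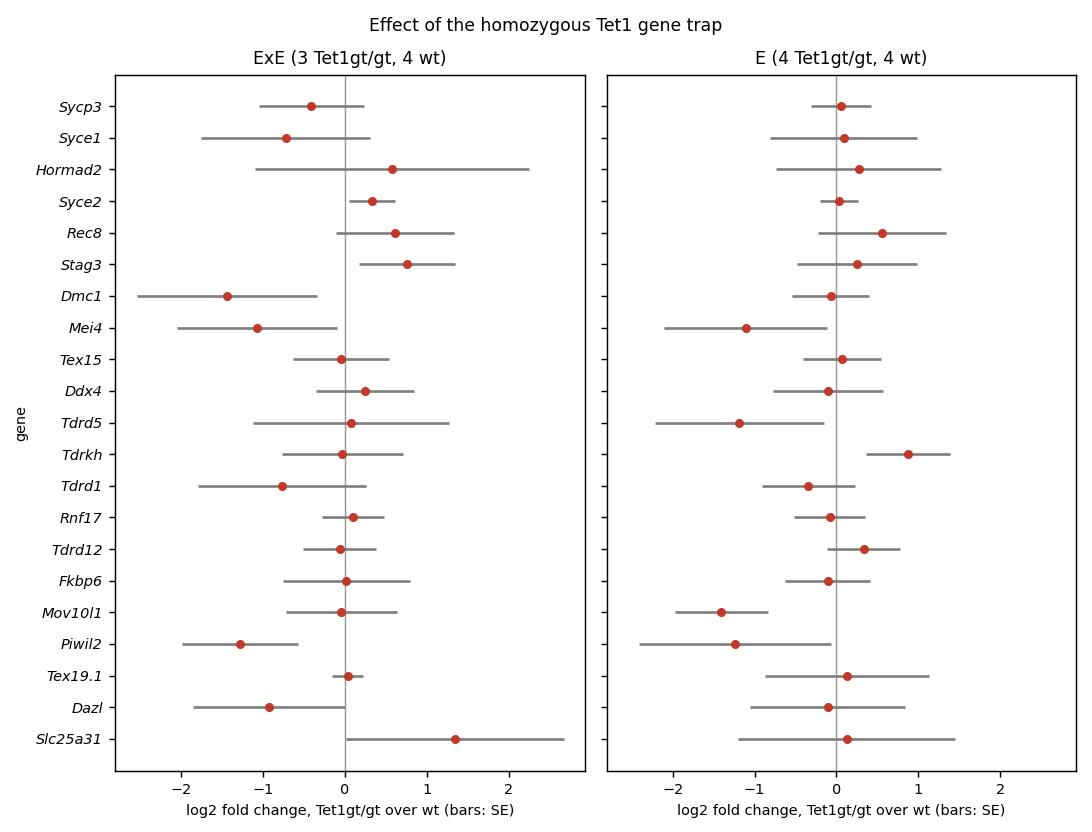
Log2 fold change of homozygous (Tet1gt/gt) over wt, with SE bars, for the 21 genes tested in both tissues with reads in every group, in ExE (left) and E (right). The points scatter on both sides of 0, and the abundant genes Tex19.1, Syce2 and Rnf17 have the shortest bars in ExE.

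In homozygous ExE, *Asz1* had the smallest p. It measured 2.03, 0.454 and 1.51 CPM in homozygous ExE, against 3.24, 3.99, 4.53 and 4.46 CPM in wt ExE (log2 fold change -1.56 ± 0.72 (SE), adjusted p = 0.659). Each homozygous pool was below each wt pool, as for 2.84% of all genes. *Piwil2* measured 3.11, 0.454 and 14 CPM in homozygous ExE, against 10.1, 20.5, 9.3 and 18.9 CPM in wt ExE (log2 fold change -1.28 ± 0.71 (SE), adjusted p = 0.713). Homozygous pool 4 lay within the wt range. Leaving out 1 library at a time gave log2 fold changes of *Piwil2* from -2.95, without that pool, to -0.78. Homozygous pool 3, at 0.454 CPM, is a library of steep length slope. *Tex101*, a surface protein of sperm, measured 0.54, 0.454 and 0 CPM in homozygous ExE, against 1.2, 1.22, 1.31 and 0.945 CPM in wt ExE (log2 fold change -1.82 ± 1.18 (SE), adjusted p = 0.786), without overlap but close to the limit of a count of 0. With 4, 2 and 0 counts in the homozygous pools, *Tex101* passed the filter only through wt and heterozygous pools, which favours a low homozygous group. It was tested in only 5 of the 11 fits that left out 1 library. *Dmc1* measured 2.3, 0.908 and 0 CPM in homozygous ExE, against 6.0, 1.22, 0.715 and 3.78 CPM in wt ExE (log2 fold change -1.44 ± 1.10 (SE), adjusted p = 0.84), and the groups overlapped. Its log2 fold change was -0.82 without wt pool 1, -2.85 without homozygous pool 1 and -0.85 without homozygous pool 4. *Stag3* was higher in each homozygous than in each wt ExE pool, as for 3.03% of all genes, at 9.45, 10.2 and 11.8 CPM in homozygous ExE, against 4.8, 6.64, 6.32 and 6.89 CPM in wt ExE (adjusted p = 0.841).

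In homozygous E, *Mov10l1* had the smallest p. It measured 1.23, 2.81, 0.686 and 3.05 CPM in homozygous E, against 3.29, 5.83, 5.15 and 6.65 CPM in wt E (log2 fold change -1.40 ± 0.57 (SE), adjusted p = 0.961), with each homozygous below each wt pool, as for 2.12% of all genes, while 2.29% of all genes and none of these were higher without overlap. *Hormad1* and *Mei4* were without overlap in the same direction. *Hormad1* measured 0.785, 0, 0.858 and 0.339 CPM in homozygous E, against 0.921, 2.09, 1.22 and 1.33 CPM in wt E (log2 fold change -1.48 ± 0.91 (SE), adjusted p = 0.961). With 7, 0, 5 and 2 counts in the homozygous pools, *Hormad1* passed the filter only through the other genotypes, which favours a low homozygous group. *Mei4* measured 0.448, 1.25, 1.89 and 1.86 CPM in homozygous E, against 2.89, 2.31, 4.07 and 2.51 CPM in wt E (adjusted p = 0.961). *Tdrkh* measured 8.74, 5.83, 3.95 and 8.8 CPM in homozygous E, against 4.08, 5.06, 1.09 and 4.73 CPM in wt E (log2 fold change 0.88 ± 0.52 (SE), adjusted p = 0.961), with 3 of the 4 homozygous pools above every wt pool. *Tdrd5*, a Tudor-domain gene of germ granules, measured 2.58, 2.71, 1.54 and 3.72 CPM in homozygous E, against 4.34, 6.72, 11.9 and 1.33 CPM in wt E (log2 fold change -1.19 ± 1.03 (SE), adjusted p = 0.961), and the homozygous pools lay within the wt range.

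In heterozygous ExE, *Mov10l1* measured 6.04, 9.47, 11.4 and 9.5 CPM in heterozygous ExE, against 3.84, 3.99, 5.12 and 4.73 CPM in wt ExE (log2 fold change 1.06 ± 0.62 (SE), adjusted p = 1), higher without overlap, as for 1.78% of all genes, while none of these genes and 2.06% of all were lower without overlap. *Tdrd12*, a Tudor-domain helicase gene, measured 7.57, 8.04, 6.48 and 6.19 CPM in heterozygous ExE, against 9.96, 21.7, 11.8 and 6.35 CPM in wt ExE (log2 fold change -0.80 ± 0.42 (SE), adjusted p = 1). *Dazl* measured 1.21, 1.44, 2.01 and 0.533 CPM in heterozygous ExE, against 1.68, 1.44, 1.91 and 10.7 CPM in wt ExE (log2 fold change -1.56 ± 0.86 (SE), adjusted p = 1), where wt pool 5 alone set the wt mean high, and without it the log2 fold change was -0.34. *Tex19.1* measured 275, 328, 326 and 311 CPM in heterozygous ExE, against 233, 303, 274 and 235 CPM in wt ExE (log2 fold change 0.27 ± 0.17 (SE), adjusted p = 1), and the groups overlapped.

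In heterozygous E, none of the genes separated without overlap, against 1.31% of all genes for higher and 1.53% for lower values. *Tdrd1*, a Tudor-domain gene of germ granules, measured 2.87, 3.92, 1.05 and 1.18 CPM in heterozygous E, against 6.84, 2.86, 6.1 and 3.54 CPM in wt E (log2 fold change -1.08 ± 0.58 (SE), adjusted p = 0.982). *Mov10l1* measured 3.94, 2.54, 2.79 and 2.5 CPM in heterozygous E, against 3.29, 5.83, 5.15 and 6.65 CPM in wt E (log2 fold change -0.82 ± 0.56 (SE), adjusted p = 0.982). *Hormad2* measured 0.426, 0, 1.05 and 0.525 CPM in heterozygous E, against 0.526, 1.76, 1.9 and 1.18 CPM in wt E (log2 fold change -1.44 ± 1.06 (SE), adjusted p = 0.982), which was -2.04 without heterozygous pool 4. *Tdrd12* measured 9.69, 11.3, 6.1 and 12.1 CPM in heterozygous E, against 10.1, 7.27, 3.39 and 5.76 CPM in wt E (log2 fold change 0.57 ± 0.45 (SE), adjusted p = 0.982). In all 4 the groups overlapped.

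*Mov10l1* was thus among the smallest p-values in 3 of the 4 comparisons, with a lower mean in both homozygous and heterozygous E and a higher mean in heterozygous ExE than in wt. Its group means were 4.15, 9.10 and 4.42 CPM in homozygous, heterozygous and wt ExE, and 1.94, 2.94 and 5.23 CPM in homozygous, heterozygous and wt E. The comparisons within a tissue share the wt libraries. The difference of the homozygous effect between ExE and E was 1.35 ± 0.86 (SE) on the log2 scale, with an adjusted p of 0.9999. *Tex19.1* had log2 fold changes of homozygous over wt of 0.03 ± 0.19 in ExE and 0.13 ± 1.00 in E (SE). *Sycp3* had log2 fold changes of -0.41 ± 0.64 in ExE and 0.05 ± 0.36 in E (SE).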

How the data were processed

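Per the labels' protocols, cDNA from pooled lysates was made and amplified with SMARTer Ultra Low Input reagents and sequenced as single 75-bp reads. The submitters' processing notes name cutadapt 1.7.1, TopHat2 2.0.12 and mm10 (GRCm38). How reads were counted (program, annotation, strand) is not stated in the sources used here. A single table, deposited by the authors, holds raw counts per gene, whole numbers without normalization, for 23 libraries. All 33 pairs of libraries within a group differed by more than counting noise (chi-square per degree of freedom of 12.3 or more over genes with at least 20 counts).

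Counts were filtered with filterByExpr (minimum count 10, minimum total 15), scaled by TMM and tested two-sided with edgeR 4.0.16 (glmQLFit, glmQLFTest) in R 4.3.3. P-values were adjusted by Benjamini-Hochberg over every gene of a fit and called under 0.05. The tissue comparison and the interaction used all 23 libraries in 6 groups, and each genotype comparison the libraries of its tissue. The procedure was also run on simulated data, and since no result of that run is given here it does not vouch for the power of these comparisons. SE is the log2 fold change divided by the square root of F. Levels are TMM-scaled CPM. Exon lengths and positions are from GENCODE M21 on GRCm38, with 98.3% of symbols matched. Mean log2 CPM of markers used a prior count of 2. The members and lists were chosen with earlier results of these data known. Values are given for genes past the threshold and for the 4 of smallest p in each genotype comparison, and *Stag3*, *Mei4*, *Syce2*, *Tdrkh*, *Piwil2* and others between tissues were added after their values were seen.

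Per the labels, E and ExE pools of the same number share litters in 3 of 4 pools, so a number need not pair the tissues in every pool. The block, called the litters in places above, treats every number as a pair. Deviations of 10 same-numbered pairs correlated with a median r of 0.17 (-0.12 to 0.74). The median r was -0.05 (-0.62 to 0.31) over 34 pairs of unlike number. Wt pool 1 had a mean log2 CPM of Y-linked genes of 4.98 in E and -0.14 in ExE. Alternatives were DESeq2 1.42.0, RLE scaling, no filter, leaving out each library, a block on the number, single genotypes, a fit of all libraries and, added after the data were seen, leaving out the 3 libraries of steep length slope. P-values measure the spread between pools.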

Additional observations from a re-analysis of the deposited data

Results flagged for a closer look

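Each of these values is the highest in a group of 4 libraries and meets Dixon's 95% criterion on the gap to the next value. Of 97 groups examined for the 20 genes given by library, 9 were marked, and chance marks about 1 in 20. That rate does not hold for 3 of the 9, in which the other libraries had no read, so that any read meets the criterion. *Tex19.1* measured 102 CPM in heterozygous E pool 4, where the other pools had 5.53 to 8.14 CPM. The same pool had 1.05 CPM of *Tex101* (6 counts) and 0.348 CPM of *Asz1* (2 counts, within what a count of 0 allows), where the other 3 had none. It also has the highest trophoblast marker level of the E libraries (mean log2 CPM 4.81) and a steep length slope, and the part of either was not tested. *Dazl* measured 10.7 CPM in wt ExE pool 5, where the others had 1.44 to 1.91 CPM, and *Hormad1* measured 0.810 CPM there, against 0 to 0.119 CPM. *Tdrd5* measured 11.2 CPM in heterozygous E pool 2, against 0 to 1.39 CPM. *Sycp1* measured 2.75 CPM in wt E pool 2, against 0.271 to 0.658 CPM. *Sycp2* measured 3.69 CPM in wt E pool 5, against 0 to 0.407 CPM, and 0.208 CPM in homozygous E pool 2 (2 counts, again within that limit), where the other 3 had none.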

How the results depend on the processing

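No direction reversed among the 26 gene results under 571 alternatives, of which 529 kept their side of the threshold and 42 lost the call. All 42 losses fell on the 10 genes called between ExE and E. The other results were of genotypes, were not called in the main fit and so had no call to lose. ExE against E called 10 of the 40 genes, and DESeq2 called 13 (9 of them shared), RLE scaling 12, and no filter 12 of all 40 (9 shared). Within 1 genotype the counts were 2 in homozygous, 6 in heterozygous and 3 in wt libraries, each from fits of fewer samples. Leaving out 1 library gave 7 to 14, while 5925 to 6586 of all genes were called, against 6262 in the main fit. For the other alternatives the share of all genes called is not given here. *Tex19.1*, *Sycp3*, *Tex15*, *Asz1*, *Dmc1* and *Mael* were called in all 23 such fits, *Ddx4* in 21, *Smc1b* in 16 and *Sycp1* in 8, while *Sycp2* was called in 18 of the 20 fits that tested it. *Sycp2* was lost with DESeq2 (adjusted p = 0.0541), and *Sycp1* was lost without the filter (0.0515). Without the 3 libraries of steep length slope 14 were called, 9 of them shared, and *Smc1b* was lost (0.0548). With the pool number as a replicate block 10 were called, 8 of them shared, *Sycp2* and *Smc1b* being replaced by *Syce2* and *Tdrkh*. The block changed no other call. Between genotypes 0 of the genes were called under every alternative tried, the replicate block included, and leaving out 1 library gave 0 in each fit. Pool numbers shared between genotypes are only a number there, with a median r of 0.23 over 9 pairs in E and -0.10 over 7 pairs in ExE. The cause of lost calls was not tested. Depth limits what can be read from the 15 of the 40 genes that average under 1 CPM, since 3 counts are 0.312 to 0.681 CPM.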
